A study of Mus musculus with 12 samples.

Results

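The genes described here are the growth factors and receptors that govern myeloid cells in mouse spinal cord white matter: the ligands Csf1 and Il34, their shared receptor Csf1r, the receptor chains Csf2ra, Csf2rb, Csf2rb2 and Il3ra of the GM-CSF and IL-3 system, and Csf3r, the receptor for G-CSF. Their Ensembl identifiers in the table of counts were matched to these 8 symbols, which gave 8 of the 46078 genes listed. The tissue was ventrolateral spinal cord white matter of C57Bl6 mice, cut out by laser capture microdissection, and 12 pools were sequenced, 3 in each of 4 groups. Young naïve mice were 6 weeks old and middle-aged naïve mice 8 months old, by the study's methods, and both groups had no lesion. Young injured and middle-aged injured mice had the same ages, and their tissue was taken 72 h after an injection into the white matter of lysolecithin, a detergent-like lipid by which axons lose their myelin. RNA of 5 mice was combined in each pool. A replicate is therefore such a pool, and p-values measure the spread between pools only. The naïve groups are not described as injected with a vehicle, so the injection itself and the demyelination cannot be told apart.

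Csf1 and IL-34 are secreted proteins that share one receptor tyrosine kinase, Csf1r, on which microglia and many macrophages depend for survival. The GM-CSF receptor pairs its own alpha chain, Csf2ra, with the common beta chain Csf2rb, which signals through JAK2 and STAT5. Mice carry an additional beta chain, Csf2rb2, which serves the IL-3 receptor alpha chain Il3ra and is a near copy of Csf2rb. In the nervous system these receptors are known mainly from microglia and from monocytes, macrophages and neutrophils that enter from the blood.

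The pools held between 9834447 and 12807437 counts, so that a floor of 3 counts corresponds to between 0.234 and 0.305 CPM (counts scaled to one common library total). Oligodendrocyte genes, the defining markers of white matter, were abundant, and 6 of them summed to 53009 CPM or more in every naïve pool. The same sum was between 18251 and 20256 CPM in the young injured group and between 7930 and 12447 CPM in middle-aged injured pools. In the middle-aged naïve group, replicate 2 stood apart. It held 22 genes at 10 times or more the level of each other naïve pool (of 15866 tested, at 1 CPM or more), against 0 to 5 such genes in any other naïve pool. Results that it changed are given with and without it where both were computed.

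The beta chains are shown first because their likeness limits what their counts can say. Csf2rb lies on the plus strand of chromosome 15 (GRCm38, 78325752 to 78353847, 17 merged exon blocks) and Csf2rb2 on the minus strand (78282507 to 78305721, 14 merged exon blocks), with 20030 bases between them. Of 2628 aligned coding bases, 2503 were identical (95.2%), with a longest identical run of 242 bases. The 60 coding bases below, from position 304 of the Csf2rb and 307 of the Csf2rb2 coding sequence (GENCODE M21 transcripts, 5′ to 3′), are shown as a stretch where they can be told apart, with the 13 bases that differ in capitals.
Csf2rb: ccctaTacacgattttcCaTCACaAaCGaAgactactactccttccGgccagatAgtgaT
Csf2rb2: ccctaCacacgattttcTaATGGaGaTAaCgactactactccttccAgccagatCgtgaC
Of all stretches of 75 bases in their transcripts, 7.15% for Csf2rb and 10.6% for Csf2rb2 occur in both genes, so reads from such stretches could be assigned to either. At 31 bases, 1369 stretches occur in both, of 7274 for Csf2rb and 4782 for Csf2rb2. How shared reads were counted is not stated, so the level of each is uncertain, and more so for Csf2rb2, the less abundant of them.

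The other genes lie at separate places in GRCm38. Csf1 is on chromosome 3 (107741048 to 107760469, minus strand), Il34 on chromosome 8 (110741829 to 110805924, minus strand) and Csf1r on chromosome 18 (61100598 to 61132149, plus strand). Csf2ra is on chromosome 19 (61223957 to 61228429, minus strand), Il3ra on chromosome 14 (14346275 to 14356011, plus strand) and Csf3r on chromosome 4 (126024550 to 126044440, plus strand). Counts are of reads in exons, coding and untranslated. Csf1r shares 873 of its 5774 exon bases with Hmgxb3 on the opposite strand, and without a stated strand setting reads from there cannot be told apart. Hmgxb3 itself had a mean of 28.7 CPM in young naïve and 17.9 CPM in middle-aged naïve pools, against 57.9 and 68.8 CPM for Csf1r, and of 26.4 and 29.6 CPM in injured pools, against 245 and 247 CPM. Shared reads could therefore weigh more on the naïve than on the injured level of Csf1r, and their number was not tested. Il34 shares 97 exon bases with Gm15894 and Gm15895, which had at most 3 counts per pool, and Il3ra shares 46 with Gm48860. Csf3r overlaps no other gene, but 23.1% of its stretches of 31 bases also occur in transcripts of other genes, most of them in AC105061.2. At 75 bases that share is 3.13%, and how such reads were counted is not stated.

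Injury raised nearly the whole group of genes. In young mice all 8 were higher in injured than in naïve white matter, with an adjusted p under 0.05 in edgeR's quasi-likelihood test over all 15866 genes, where 28.3% of all genes tested were called higher. In middle-aged mice 6 of 8 were higher, against 29.2% of all genes, and the exceptions were Csf1 and Il3ra. The injured pools all lay above the naïve pools for 8 of 8 genes in young mice, against 35% of all genes tested, and for 6 of 8 in middle-aged mice, against 31.5%. The median log2 fold change of the 8 genes was 3.21 in young and 2.06 in middle-aged mice, whereas that of all genes tested was 0.00 and -0.03. Among the genes other than Il3ra, the beta chains changed most and the ligands least at both ages. Injured tissue also held far more RNA of myeloid markers, and in tissue more cells of a type and more RNA per cell cannot be told apart.

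**Figure D1:**
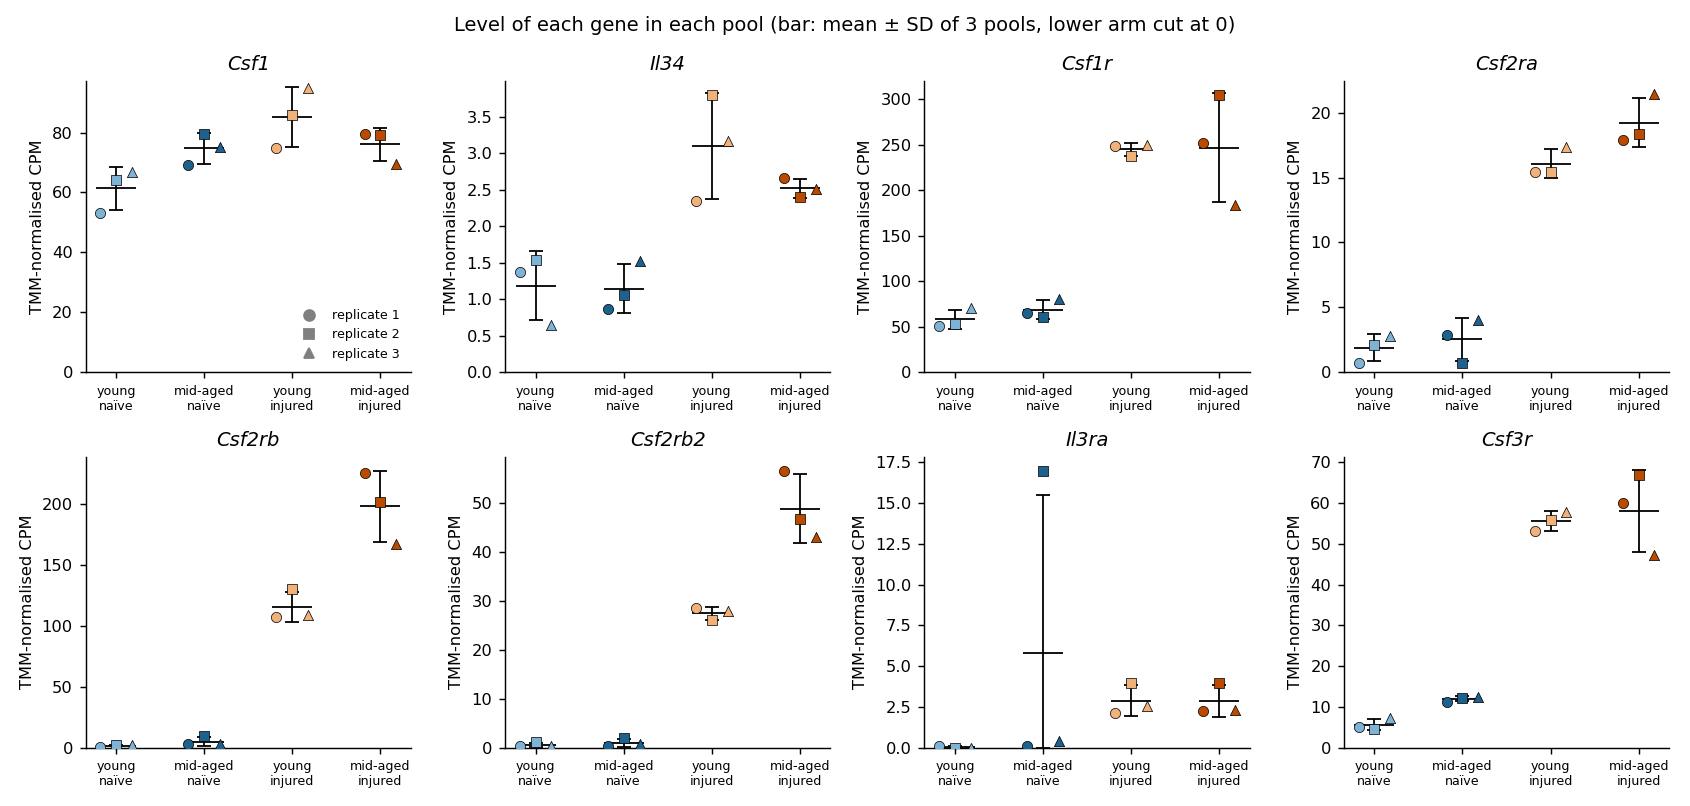
TMM-normalised CPM (y axis, from 0) of each of the 8 genes in each of 12 pools, by group; symbols mark the replicate number and bars the mean ± SD of 3 pools. The injured pools lie above the naïve pools for Il34, Csf1r, Csf2ra, Csf2rb, Csf2rb2 and Csf3r at both ages, and replicate 2 of the middle-aged naïve group stands alone for Il3ra, at 17.0 CPM.

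Csf1, the main ligand of Csf1r, changed least. It stood at 53.0, 64.3 and 66.8 CPM in the young naïve pools and at 74.9, 85.8 and 94.8 CPM in the young injured pools. It was at 69.3, 79.6 and 75.2 CPM in middle-aged naïve and at 79.4, 79.1 and 69.6 CPM in middle-aged injured pools. The young injured pools therefore all lay above the young naïve ones, while in middle-aged mice the ranges overlapped almost completely. The log2 fold change on injury was 0.47 (SE 0.13, adjusted p = 0.00658, edgeR) in young mice. In middle-aged mice it was 0.03, with a 95% interval from -0.25 to 0.30 and an adjusted p of 0.878 in edgeR. Leaving out single pools gave values between -0.02 and 0.09 there. Between the ages, the effect of injury on Csf1 differed by -0.45 on the log2 scale, which missed the threshold, with an adjusted p of 0.425 in edgeR, so a smaller response of Csf1 in middle-aged mice was not shown.

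Il34, the second ligand of Csf1r, was scarce throughout. It had 15, 17 and 6 counts in the young naïve and 9, 10 and 19 counts in the middle-aged naïve pools. After injury it had 32, 49 and 42 counts in young and 32, 30 and 29 counts in middle-aged mice. Every injured pool thus lay above every naïve pool, at levels where counting error alone is wide. For example, the 6 counts of young naïve replicate 3 have a 95% Clopper-Pearson interval from 0.224 to 1.33 CPM of the library total. Mean levels were 1.18 ± 0.475 CPM (SD, n = 3) in young naïve, 1.14 ± 0.338 in middle-aged naïve, 2.52 ± 0.131 in middle-aged injured and 3.10 ± 0.726 CPM in young injured pools. On injury Il34 rose by 1.37 (log2) in the young (SE 0.40, adjusted p = 0.00907, edgeR) and by 1.12 in middle-aged mice (SE 0.40, adjusted p = 0.0265, edgeR). The middle-aged call was lost without middle-aged injured replicate 1 (adjusted p = 0.0659), middle-aged injured replicate 3 (0.0508) or middle-aged naïve replicate 1 (0.0762), all in edgeR. It was also lost with no filter on low counts (adjusted p = 0.0560, edgeR).

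The balance of the ligands of Csf1r was compared within each pool, as the ratio of Csf1 to Il34 per kilobase of exon, which does not depend on scaling between libraries. The ratio was 13.9, 15.04 and 35.5 in the young naïve pools and 28.2, 26.8 and 17.9 in the middle-aged naïve pools. It was 11.6, 8.30 and 10.99 in young injured and 10.9, 12.1 and 10.1 in middle-aged injured pools. Csf1 thus outnumbered Il34 in every pool, and every injured pool had a lower ratio than every naïve pool. Over both ages the ratio fell by 1.02 on the log2 scale (2-sided exact permutation test within ages, p = 0.005, the smallest its 400 arrangements allow). Within one age 3 pools against 3 cannot go below p = 0.1, which both ages reached in the exact permutation test. Between ages the ratio differed by 0.20 on the log2 scale (exact permutation p = 0.44).

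**Figure D2:**
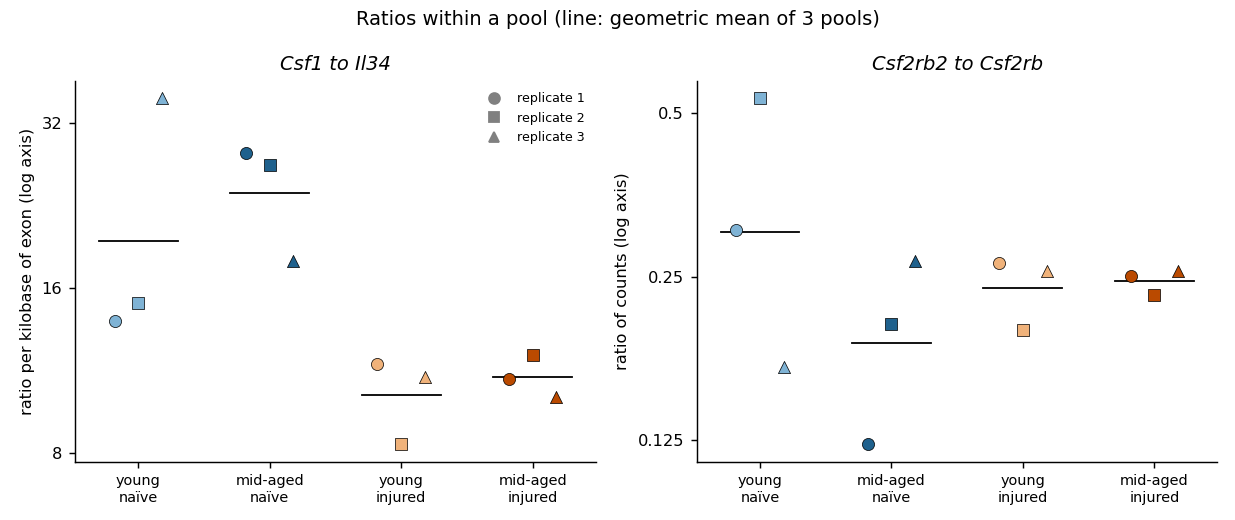
Left, ratio of Csf1 to Il34 per kilobase of exon in each pool; right, ratio of Csf2rb2 to Csf2rb counts, both on log axes, with lines at the geometric mean of 3 pools. The injured pools lie between 8.30 and 12.1 for Csf1 to Il34 and the naïve pools between 13.9 and 35.5, while the naïve pools spread around the injured ones for Csf2rb2 to Csf2rb.

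Csf1r, the receptor kinase for both ligands, had the highest level per kilobase of exon among the 6 receptor genes in naïve tissue. It stood at 50.7, 52.7 and 70.2 CPM in young naïve and at 64.9, 61.0 and 80.4 CPM in middle-aged naïve pools. After injury it stood at 248, 237 and 249 CPM in young mice and at 252, 304 and 184 CPM in middle-aged mice. Injured and naïve pools were far apart at both ages, and the middle-aged injured pools spread most, so that the young injured values fell inside their range. On the log2 scale Csf1r rose by 2.08 in young (SE 0.18, adjusted p = 3.1e-07, edgeR) and by 1.84 in middle-aged mice (SE 0.18, adjusted p = 8.12e-07, edgeR). Per kilobase of exon, Csf1r and Csf1 were at 10.02 ± 1.86 and 11.6 ± 1.39 CPM (SD, n = 3) in young naïve tissue. In young injured tissue the receptor was at 42.4 ± 1.19 CPM per kilobase and the ligand at 16.1 ± 1.89.

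Csf2ra, the alpha chain that gives the GM-CSF receptor its specificity, was scarce in naïve tissue. It had 8, 23 and 26 counts in young naïve and 30, 7 and 50 counts in middle-aged naïve pools, an uneven spread within both groups. After injury it had 210, 199 and 231 counts in young and 216, 230 and 248 counts in middle-aged mice, at 16.1 ± 1.14 and 19.2 ± 1.90 CPM (SD, n = 3). The injured pools were close to one another and well above all naïve pools. The log2 fold change was 3.12 in young (SE 0.44, adjusted p = 3.31e-05, edgeR) and 2.88 in middle-aged mice (SE 0.42, adjusted p = 4.03e-05, edgeR).

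Csf2rb, the beta chain shared by the receptors for GM-CSF, IL-3 and IL-5, had among the highest changes. It stood at 1.002, 2.09 and 2.15 CPM in young naïve and at 2.69, 9.44 and 2.80 CPM in middle-aged naïve pools. After injury it stood at 108, 130 and 109 CPM in young and at 226, 202 and 168 CPM in middle-aged mice. The 4 groups did not overlap in any step of the order young naïve, middle-aged naïve, young injured, middle-aged injured. Its log2 fold change on injury was 6.05 in young mice (SE 0.41, adjusted p = 2.18e-08, edgeR), and 203 of the 15866 genes had a higher one. In middle-aged mice it was 5.35 (SE 0.37, adjusted p = 2.33e-08, edgeR). Replicate 2 held 63.2% of the summed CPM of the middle-aged naïve group, whose mean was 4.98 CPM with it and 2.74 CPM without it. Without that pool the middle-aged log2 fold change was 6.17.

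Csf2rb2, the beta chain of the mouse IL-3 receptor, followed the same pattern at a lower level. It had 3, 12 and 3 counts in young naïve and 3, 18 and 9 counts in middle-aged naïve pools. After injury it had 387, 335 and 371 counts in young and 681, 585 and 497 counts in middle-aged mice. Naïve pools were thus at or little above the floor of 3 counts, and every middle-aged injured pool was above every young injured one. The log2 fold change on injury was 5.56 in young (SE 0.44, adjusted p = 1.09e-07, edgeR) and 5.69 in middle-aged mice (SE 0.41, adjusted p = 3.76e-08, edgeR). A single pool carried both naïve means: replicate 2 held 64.6% of the young naïve and 65.2% of the middle-aged naïve sum of CPM. The group means were 1.88 and 1.92 times those without it. Over all genes tested, 6.73% in young naïve and 12.4% in middle-aged naïve pools had such a ratio over 1.5 for their highest pool. Without young naïve replicate 2 the young log2 fold change was 6.49, and without middle-aged naïve replicate 2 the middle-aged one was 6.52.

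The ratio of Csf2rb2 to Csf2rb counts within a pool was between 0.171 and 0.532 in young naïve and between 0.123 and 0.268 in middle-aged naïve tissue. It was between 0.200 and 0.264 in young injured and between 0.231 and 0.256 in middle-aged injured tissue. The change on injury over both ages was 0.02 on the log2 scale (exact permutation p = 0.95), and values with single pools left out ran from -0.19 to 0.22. Naïve pools had as few as 3 counts of Csf2rb2, and the smallest change that this depth could show was not tested. With the counts of both genes added together, the log2 fold change on injury was 5.95 in young and 5.41 in middle-aged mice.

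The promoter of Csf2rb2 is shown because this gene rose most in middle-aged mice among the 5 of 8 genes with an entry in the RefSeq promoter table used here. These 250 bases end just before the gene's start (chr15:78305722-78305971, minus strand, GRCm38.p6, RefSeq, 5′ to 3′), and capitals mark matches to searched motifs.
Csf2rb2 promoter: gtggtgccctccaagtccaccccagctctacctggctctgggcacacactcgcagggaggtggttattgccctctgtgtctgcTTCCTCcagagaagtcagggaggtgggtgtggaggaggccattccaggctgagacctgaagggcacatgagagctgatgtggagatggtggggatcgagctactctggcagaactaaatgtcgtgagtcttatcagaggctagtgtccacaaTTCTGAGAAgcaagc
The motifs, searched on both strands, were the PU.1 core GAGGAA (here on the other strand), the STAT motif TTCNNNGAA, the C/EBP motif TTGCNNAA and the AP-1 motif TGANTCA, and no match overlapped another. The first occurred at position -167 and the second at -15 from the start, and the other motifs had no match. Of 32851 mouse promoters in windows of the same length, 23.3% held the PU.1 core, 7.02% the STAT motif, 9.56% the C/EBP motif and 6.75% the AP-1 motif. The PU.1 core is therefore common and the STAT motif less so, and the share of promoters that hold both was not counted. A match here is a description of the sequence only.

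Il3ra, the IL-3 receptor alpha chain, was the gene whose group means were decided by a single pool. It had 1, 0 and 0 counts in young naïve pools and 29, 51 and 34 counts in young injured pools. In middle-aged mice it had 1, 162 and 5 counts in naïve and 27, 50 and 27 counts in injured pools. Replicate 2 of the middle-aged naïve group thus lay above all 11 other pools, injured ones included, and supplied 162 of the group's 168 counts. Its level of 15.6 CPM of the library total has a 95% Clopper-Pearson interval from 13.3 to 18.2, so counting error does not span the gap to the other naïve pools. The group mean was 5.83 ± 9.67 CPM (SD, n = 3) with this pool and 0.248 CPM without it, a ratio of 23.5.

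**Figure D3:**
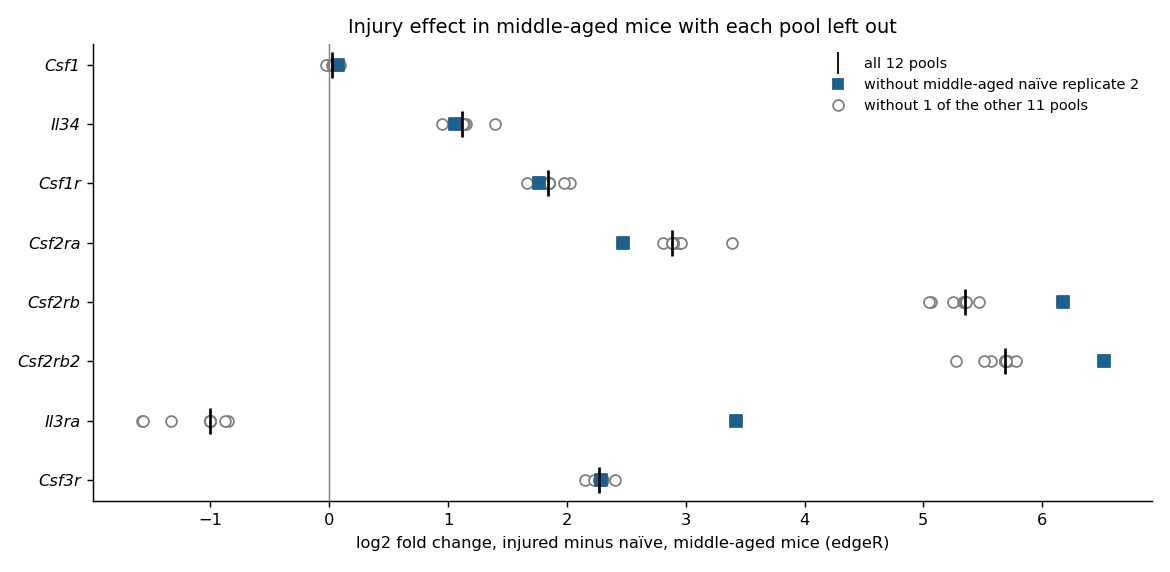
Log2 fold change on injury in middle-aged mice (x axis, edgeR) for each of the 8 genes, with all 12 pools (black bar), without middle-aged naïve replicate 2 (blue square) and without each of the other 11 pools (open circles). The square moves from the bar most for Il3ra, from -1.005 to 3.42, and it is the highest value for Csf2rb and Csf2rb2, at 6.17 and 6.52.

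The injury effect on Il3ra in middle-aged mice therefore changed direction with this pool. With it, the log2 fold change was -1.005 (SE 1.01, adjusted p = 0.413, edgeR), and without it 3.42 (SE 0.65, adjusted p = 0.000419, edgeR), so that 7 of 8 genes were then called higher. Over all genes, fits with a pool left out called between 8270 and 9645 in either direction, and the share called higher in this fit is not given here. In counts, without the pool, injured tissue held 11.6 times the share of naïve tissue (95% counting interval 5.17 to 32.4). In young mice Il3ra was called higher after injury (adjusted p = 0.0130, edgeR), from 1 count in all naïve pools to 114 in the injured pools. That is a ratio of 103 with a counting interval from 18.1 to 4095, and the fitted log2 fold change is not quoted because it depends on the prior count at such levels. All 12 fits with a pool left out kept the young call. DESeq2 gave Il3ra no adjusted p in any comparison.

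Csf3r, the receptor for G-CSF, is best known from neutrophils and is also carried by other myeloid cells. It stood at 5.19, 4.53 and 7.20 CPM in young naïve and at 11.3, 12.3 and 12.48 CPM in middle-aged naïve pools. After injury it stood at 53.1, 55.7 and 57.9 CPM in young and at 60.1, 67.0 and 47.1 CPM in middle-aged mice. The naïve groups were clear of each other, while the young injured values fell inside the range of the middle-aged injured ones. On the log2 scale Csf3r rose by 3.31 in young (SE 0.19, adjusted p = 5.19e-09, edgeR) and by 2.27 in middle-aged mice (SE 0.18, adjusted p = 8.68e-08, edgeR). A few neutrophil markers were also higher after injury, at low levels. The 8 genes S100a8, S100a9, Ly6g, Mmp8, Camp, Ltf, Retnlg and Cxcr2 summed to between 0.0906 and 1.08 CPM in naïve pools and between 11.4 and 28.6 CPM in injured pools, so that the whole list stayed below Csf3r alone. Mmp8, a neutrophil collagenase, made up most of the sum, with means of 11.6 CPM in young injured and 19.6 CPM in middle-aged injured pools. Of the 8, 3 were tested (S100a8, Mmp8 and Cxcr2), of which 2 were called higher in young mice, where Cxcr2 missed the threshold (adjusted p = 0.0679, edgeR), and 3 in middle-aged mice. Ly6g, the defining surface marker, was not higher, at means of 0.0358 and 0.139 CPM in young and middle-aged naïve pools and of 0.0245 and 0.0288 CPM in injured pools. Retnlg was at 0 in every naïve and every middle-aged injured pool. The part of neutrophils in the change of Csf3r was not tested.

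**Figure D4:**
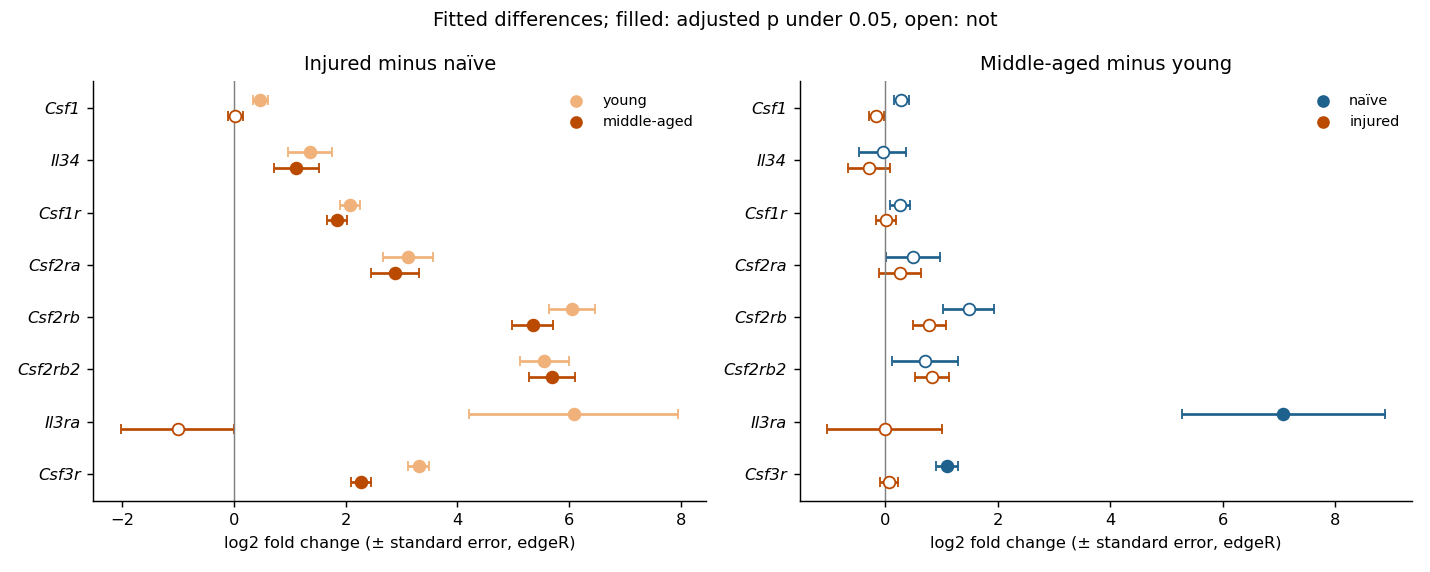
Log2 fold change (x axis, ± standard error, edgeR) of each of the 8 genes, left for injured minus naïve and right for middle-aged minus young; filled points have an adjusted p under 0.05. On the left all points lie above 0 except Il3ra in middle-aged mice. On the right only Csf3r and Il3ra in naïve tissue are filled. Il3ra, with wide bars throughout, had 0 or 1 counts in the young naïve pools and from 1 to 162 in the middle-aged naïve pools. Without middle-aged naïve replicate 2 its standard error was 0.65 in place of 1.01 for injury in middle-aged mice, and 0.42 in place of 1.02 for age in injured tissue.

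Age in naïve tissue was compared next. Middle-aged naïve tissue had more Csf3r and Il3ra than young naïve tissue, 2 of 8 genes, where 2.02% of all genes tested were called higher, and 0 of the 8 were called lower, against 1.78% of all genes. Csf3r had a mean of 12.03 ± 0.616 against 5.64 ± 1.39 CPM (SD, n = 3) and a log2 fold change of 1.099 (SE 0.19, adjusted p = 0.00554, edgeR). This call held in all 12 fits with a pool left out and was lost when only the naïve pools were fitted (adjusted p = 0.158). The call of Il3ra (adjusted p = 0.0433, edgeR) rested on replicate 2 and held in 2 of the 12 fits with a pool left out. Without replicate 2 its adjusted p was 0.230, with 1 count in all young naïve pools together and 6 in the remaining middle-aged pools.

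Csf2rb was also higher in each middle-aged naïve pool than in each young naïve pool, with a log2 fold change of 1.48 that missed the threshold (SE 0.45, adjusted p = 0.0926, edgeR). DESeq2 called it (1.51, adjusted p = 0.0451), as did edgeR with no filter on low counts (adjusted p = 0.000452) and in 2 of 12 fits with a pool left out. It was 0.66 without replicate 2 (adjusted p = 0.255, edgeR). Csf1 showed the same lack of overlap with a log2 fold change of 0.28 (adjusted p = 0.264, edgeR). In all, 4 of the 8 genes had middle-aged naïve pools above all young naïve pools, against 7.77% of all genes tested. Il34, Csf1r, Csf2ra and Csf2rb2 overlapped between the ages, with log2 fold changes of -0.05, 0.25, 0.49 and 0.70. That of Csf2rb2 was -0.14 without replicate 2. The median over the 8 genes was 0.59, and that of all genes tested was 0.01. Pan-myeloid markers also moved with age here, 7 of 8 being called higher in middle-aged naïve tissue (5 of 8 without replicate 2), with summed levels of 273 to 359 CPM against 124 to 176 CPM in young naïve pools. Levels relative to these markers are given below, and the part of the markers in the age differences was not tested.

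In injured tissue none of the 8 genes passed the test between ages in edgeR, where 0.24% of all genes tested were called higher and 0.908% lower. At an unadjusted p under 0.05, edgeR counted 2 genes, Csf2rb and Csf2rb2, and DESeq2 called 1, Csf2rb2, at an adjusted p of 0.0238. For these criteria the shares of all genes are not given here, so the counts cannot be set against them. Csf2rb stood at 199 ± 29.2 CPM in middle-aged and 116 ± 12.5 CPM in young injured pools (SD, n = 3), a log2 fold change of 0.78 (SE 0.29, adjusted p = 0.315, edgeR). Csf2rb2 stood at 48.7 ± 7.03 and 27.4 ± 1.30 CPM, a log2 fold change of 0.83 (SE 0.30, adjusted p = 0.292, edgeR). With Csf2ra, these receptor chains were the 3 of 8 genes whose middle-aged injured pools all lay above the young injured ones, against 11.1% of all genes tested. Both beta chains passed the threshold when only the injured pools were fitted (adjusted p = 0.00417 and 0.00273) and without middle-aged naïve replicate 2 (0.0110 and 0.0416), all in edgeR. The other genes had log2 fold changes between -0.30 and 0.26, and that of Csf3r was 0.06. Pan-myeloid RNA was also higher in every middle-aged injured pool, with summed levels of 3736 to 4965 CPM against 3021 to 3431 CPM, although 0 of those 8 markers were called. Ccr2, a chemokine receptor of monocytes, stood at 131 ± 23.4 against 64.7 ± 15.9 CPM (SD, n = 3; adjusted p = 0.0821, edgeR). Of the 6 monocyte markers listed below, which include Ccr2, 0 were called higher and 1 lower. Their sums overlapped, at 1216 to 1324 CPM in middle-aged and 1187 to 1434 CPM in young injured pools. Levels relative to pan-myeloid RNA are given below. The part of all these markers in the age differences of the beta chains was not tested.

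Whether the injury effect itself differed between ages was tested as an interaction over all 12 pools. None of the 8 genes passed in edgeR, where 0.139% of all genes did. At an unadjusted p under 0.05, edgeR counted 3 genes, Csf1, Il3ra and Csf3r, and DESeq2 called 1, Csf3r, at an adjusted p of 0.0204. The shares of all genes by these criteria are not given here, so these counts cannot be set against them. The injury effect on Csf3r was smaller in middle-aged mice by 1.04 on the log2 scale (SE 0.25, adjusted p = 0.134, edgeR). In its levels, this difference lies in the naïve groups, where the middle-aged pools started higher.

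The levels were then set against the RNA of myeloid cells in the same pool, as the log2 CPM of a gene minus the mean log2 CPM of 8 pan-myeloid markers (Aif1, Itgam, Itgb2, Ptprc, Laptm5, Fcer1g, Ctss and Cd68). The mean of these markers rose by 4.62 on the log2 scale on injury in young and by 3.87 in middle-aged mice. Relative to it, over both ages, Csf1 fell by 3.996, Il34 by 3.05, Csf1r by 2.29 and Csf3r by 1.48 on the log2 scale, each at p = 0.005 in a 2-sided exact permutation test, the smallest possible. Any gene that rose much less than this mean falls by this measure, although none of these 4 fell in CPM. For the ligands Csf1 and Il34 the relative fall mainly restates the rise of the markers. Csf2rb rose by 1.497 (exact permutation p = 0.005) and Csf2rb2 by 1.30 (exact permutation p = 0.02). Csf2ra changed by -1.12 (exact permutation p = 0.06), and 6 alternatives brought it past the threshold, among them the median of the markers (-1.45, exact permutation p = 0.035) and leaving out middle-aged naïve replicate 2 (-1.54, exact permutation p = 0.005). Over both ages the beta chains thus rose more than the mean of the pan-myeloid markers, whereas Csf1r rose less. In young mice the beta chains did not exceed every marker, since Cd68, a lysosomal protein of macrophages, rose by 6.90 on the log2 scale. In middle-aged mice Cd68 rose by 5.50, between Csf2rb at 5.35 and Csf2rb2 at 5.69. In young mice alone the relative change of Csf2rb2 was 0.78 (exact permutation p = 0.4). The 8 comparisons have p-values that are not adjusted, and that of Il3ra, at -1.75 (exact permutation p = 0.01), was -0.80 (p = 0.655, exact permutation) with a prior count of 0.5 in place of 2. With single pools left out, the Il3ra value ran from -2.26 to -0.93 (exact permutation p from 0.01 to 0.08). With age in naïve tissue, the relative level differed by 0.03 for Csf3r and 0.18 for Csf2rb (both exact permutation p = 0.8). For Csf1 it was -0.78 (exact permutation p = 0.1, the smallest for 3 pools against 3) and for Il3ra 1.74 (exact permutation p = 0.5). Replicate 2 was the highest middle-aged naïve pool for Il3ra, at -0.345, and for Csf2rb, at -1.18. The lowest were at -5.65 and -2.51, against young naïve means of -5.36 and -2.15. These age differences include replicate 2 and are not given without it. In injured tissue it was 0.47 for Csf2rb and 0.51 for Csf2rb2 (both exact permutation p = 0.1). For Csf2ra it was -0.05 there (exact permutation p = 0.9).

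**Figure D5:**
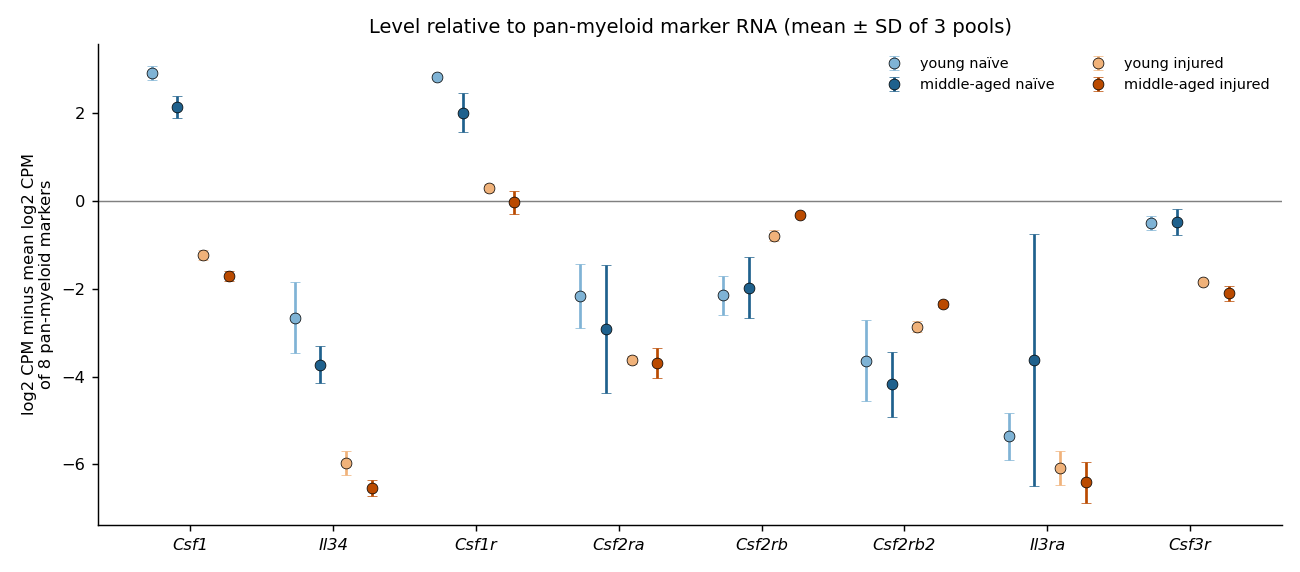
Log2 CPM of each of the 8 genes minus the mean log2 CPM of 8 pan-myeloid markers (y axis; mean ± SD of 3 pools in each of 4 groups). Csf1, Il34, Csf1r and Csf3r lie lower in injured than in naïve groups, and Csf2rb and Csf2rb2 lie higher.

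Markers of other cells moved as well. Monocyte markers (Ccr2, Ly6c2, Plac8, Chil3, Fn1 and Vcan) were called higher on injury in 6 of 6 cases at both ages, and their sum was between 83.7 and 113 CPM in naïve and between 1187 and 1434 CPM in injured pools. Ccr2, Plac8 and Chil3 were at 0 in every young naïve pool, so that Ly6c2, Fn1 and Vcan made up the whole sum there. Of 6 homeostatic microglia genes (P2ry12, Tmem119, Sall1, Siglech, Gpr34 and P2ry13), 3 were called higher and 1 lower on injury in young mice, and 1 higher and 2 lower in middle-aged mice, or 3 higher and 3 lower without middle-aged naïve replicate 2. Over all genes tested, 28.3% were called higher and 26.3% lower in young mice, and 29.2% higher and 29.3% lower in middle-aged mice. Their sums were 151 to 199 CPM in young naïve, 230 to 399 in middle-aged naïve (230 and 267 without replicate 2), 306 to 359 in middle-aged injured and 368 to 398 CPM in young injured pools. The part of each cell type in the changes of the receptor genes was not tested.

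The further genes of the pathway were read from a list of 38 partners, of which 37 were in the table and 31 were tested. Of these 31, 23 (74.2%) were called higher and 3 lower on injury in young mice, and 24 (77.4%) higher and 4 lower in middle-aged mice. The shares over all genes were 28.3% higher and 26.3% lower in young and 29.2% higher and 29.3% lower in middle-aged mice. Those that fell were Flt3, Pik3r1 and Sos1, joined in middle-aged mice by Ptprz1. The median log2 fold change of the list was 1.13 in young and 1.60 in middle-aged mice.

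Ligands of the GM-CSF, G-CSF, IL-3 and IL-5 receptors were at or near the limit of detection. Csf2, which encodes GM-CSF, had 0 counts in all naïve pools and at most 4 in an injured pool. Csf3, which encodes G-CSF, had at most 1 count, Il5 at most 3, and Il3 and the receptor chain Il5ra had 0 in all 12 pools, which allows up to 0.305 CPM in the shallowest pool. After injury, receptor chains that were well counted thus stood beside ligands near or under this limit. Kitl, the ligand of the stem cell factor receptor Kit, was measured well and rose by 1.999 in young (SE 0.28, adjusted p = 2.58e-05, edgeR) and 2.64 in middle-aged mice (SE 0.28, adjusted p = 1.87e-06, edgeR) on the log2 scale. Kit itself was not called, at 0.32 and 0.85 (adjusted p = 0.527 and 0.0891, edgeR), although without middle-aged naïve replicate 2 it was called in middle-aged mice (1.26, adjusted p = 0.0193, edgeR). Flt3l was not analysed here.

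Further receptors differed in direction. Sdc1 and Ptprz1 encode syndecan-1 and a receptor phosphatase, which also bind IL-34. Sdc1 rose by 3.19 in young and 3.51 in middle-aged mice on the log2 scale, from 12.7 ± 1.13 to 116 ± 14.99 CPM and from 20.4 ± 12.49 to 231 ± 64.5 CPM (SD, n = 3). Without middle-aged naïve replicate 2 the middle-aged naïve mean was 13.2 CPM and the rise 4.13. Ptprz1 had log2 fold changes of -0.06 in young (adjusted p = 0.753, edgeR) and -0.42 in middle-aged mice (adjusted p = 0.0150, edgeR), and the difference between the ages had an adjusted p of 0.565. Flt3, the receptor kinase of early progenitors, fell by 1.63 in young and by 1.15 in middle-aged mice (adjusted p = 0.000325 and 0.00357, edgeR).

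Downstream of the receptors, kinases rose in 7 of 10 cases at both ages, where 28.3% of all genes in young and 29.2% in middle-aged mice were called higher, shares that stand beside each count below. Syk, a kinase that binds phosphorylated adaptors, rose by 4.15 in young and 3.77 in middle-aged mice. The Janus kinases Jak1 and Jak2, through which the beta chains and Csf3r signal, had log2 fold changes between 0.05 and 0.25 and were not called. Tyk2, the other Janus kinase of the list, was among the kinases called higher at both ages. All 3 transcription factors of the list rose, with Stat5a at 1.75 and 1.96 and Stat5b at 0.71 and 0.66. Of 6 adaptors and linked enzymes, 4 rose in young and 5 in middle-aged mice, led by Tyrobp, which carries signals of many myeloid receptors (4.26 and 3.29), and Plcg2, a phospholipase (3.46 and 3.50). All 7 tested inhibitors rose at both ages (6 of 7 in middle-aged mice without middle-aged naïve replicate 2), led by Socs3, which dampens G-CSF signalling (5.15 and 4.004, the latter 4.95 without that pool), and Ptpn6, a phosphatase (4.39 and 3.48). These values are log2 fold changes in young and then middle-aged mice, and each gene said to have risen had an adjusted p under 0.05 in edgeR. With age in naïve tissue, 4 of the 31 partners were called higher (12.9%, against 2.02% of all genes), and they were Pik3cd, Tyrobp, Socs3 and Ptpn6. Without middle-aged naïve replicate 2, Syk was called and Socs3 was not.

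The genes whose log2 CPM followed that of each gene most closely over the 12 pools are given as a description, since the pools fall into naïve and injured clusters that most changed genes share. Csf1r was most like Dtx4, Fermt3 and Unc93b1, each at a Pearson r of 0.993. Csf2rb was most like Ppp1r18 (0.998), Cd63 and Stom (both 0.997), and Csf2rb2 most like Gpr65 (0.996), Tnfaip2 (0.995) and Hnrnpf (0.994). Csf3r was most like Irf8 and Hcls1 (both 0.997) and Ptpn6 (0.995), and Csf2ra most like Bbs12 (0.989), Bmp2k (0.984) and Rest (0.983). The ligands had weaker neighbours, with Cpt1a (0.9496), Virma (0.9488) and Serpina3c (0.9486) for Il34 and Smpd2 (0.930), Bco2 (0.889) and Arl5c (0.873) for Csf1. Il3ra was most like Gtf2h2 (0.978), Tmem119 (0.967) and Hps1 (0.965). These 3 genes were also highest in middle-aged naïve replicate 2 among all 12 pools. Tmem119 stood at 193 CPM there, between 35.9 and 64.6 CPM in the other naïve pools and between 79.9 and 146 CPM in injured pools. Without that pool, the coefficients for Il3ra were 0.971, 0.961 and 0.981 over 11 pools.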

How the data were processed

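The authors checked reads with FastQC 0.11.4, mapped them to GRCm38 with TopHat2 2.0.10 and Bowtie 1.1.2, and deposited raw counts of reads per gene from featureCounts. The annotation release, strand setting and treatment of shared reads are not given in the sources used here. Of 46078 identifiers, 45143 matched a symbol (GENCODE M21).

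The counts were scaled by TMM and tested in R 4.3.3 with edgeR 4.0.16 (filterByExpr, glmQLFit, glmQLFTest), with 1 coefficient per group over all 12 pools, Benjamini-Hochberg adjustment over 15866 genes and a threshold of 0.05. Standard errors were taken from the fold change and its F statistic. A prior count of 2 entered log2 CPM values, and 0.5 was added to each gene's count in ratios. Ratios and relative levels were compared by exact permutation tests within and over ages. Steps were tested on simulated data. Library depth gave a floor of 3 counts. Reads were amplified, so intervals and floors cover counting error only.

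All 8 genes are named. Partner ligands and receptors are named, and in each other role the 2 partners with the highest mean change among those called at both ages. One partner that this rule names is not reported here. For each gene, the 3 most correlated genes with a mean log2 CPM of at least 1 are given. Jak1, Jak2, Tyk2 and genes behind counts of 5 or fewer were named after their values were seen. Genes and lists were chosen with earlier results of these data known. Alternatives were DESeq2 1.42.0, other scalings and filters, other pools in the fit, a replicate block, summed beta chains, other markers and other added counts.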

Additional observations from a re-analysis of the deposited data

How the results depend on the processing

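All 8 young injury calls held in every edgeR fit tried, and DESeq2 called 7, with no adjusted p for Il3ra. In middle-aged mice 5 to 7 genes were called. Settings moved the small counts most. The count called with age in naïve tissue, 2, was 2 with DESeq2 but for Csf2rb and Csf3r, 0 when only those pools were fitted, where Il3ra and Csf2rb2 did not pass the filter on low counts, and 1 to 3 with a pool left out. The count in injured tissue, 0, was 1 with DESeq2, 1 with no filter, 2 with only those pools and 0 to 2 with a pool left out. The interaction count, 0, was 1 with DESeq2 and 2 with no filter. Calls over all genes tested moved as well. With a pool left out they ran from 261 to 800 with age in naïve tissue, 45 to 410 with age in injured tissue and 3 to 56 for the interaction. Under the other settings, the main fit included, they ran from 71 to 1153, 174 to 818 and 22 to 329 in that order. The replicate numbers did not pair pools: 2 of 18 same-number pairs correlated above 0.1 (range -0.113 to 0.153), and a pool correlated best with its own number in 14 of 36 cases. With a replicate block the naïve age count was 1, and Il3ra on injury in middle-aged mice was 0.16 on the log2 scale (adjusted p = 0.89, edgeR), while the counts for the other comparisons stayed the same.

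Reversals were seen where no call had been made. Between ages after injury, Csf1r was -0.0487 with library totals alone, and Il3ra was 0.0055 with DESeq2 and 0.0061 with its size factors. The change of Csf2rb2 to Csf2rb was -0.23 with a count of 2 added, and -0.19 to 0.22 with a pool left out. With a pool left out, log2 fold changes on injury in middle-aged mice ran from -0.0228 to 0.0931 for Csf1 and from -1.58 to 3.42 for Il3ra. With age after injury they ran from -0.16 to 0.20 for Csf1r, -0.0476 to 0.21 for Csf3r and -0.33 to 0.29 for Il3ra. With age in naïve tissue they ran from -0.00949 to 0.91 for Csf2ra, -0.14 to 1.62 for Csf2rb2 and -0.33 to 0.18 for Il34. Interaction values ran from -0.65 to 0.27 for Csf2ra, -1.01 to 0.12 for Csf2rb, -0.80 to 0.97 for Csf2rb2 and -0.48 to 0.0325 for Il34. The causes were not tested. Leaving out middle-aged naïve replicate 2 for the partner and marker lists was chosen after seeing the data. Counts of 49 or fewer per pool limit Il34, and naïve counts of 50 or fewer limit Csf2ra.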
